A study of Bos taurus with 8 samples.

Results

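The comparison described here sets the ovarian cells of 4 Holstein heifers at 8 months of age against those of the same animals at 11 months, with the RNA of each heifer at 14 months as the common partner. It used 8 of the 8 arrays of the series. A first set of 4 arrays carried RNA of 8 and of 14 months, a second set of 4 carried RNA of 11 and of 14 months, and both RNAs of an array came from 1 heifer. The log2 ratio of the younger age over 14 months was taken on every array, and within each heifer the ratio at 11 months was subtracted from the ratio at 8 months. This gave 4 paired values per probe, positive where the level was higher at 8 months. No array carried RNA of 8 and of 11 months together, so every value passes through a 14-month channel on each of 2 arrays.

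Every sample is labelled as granulosa cells, the supporting cells inside the follicle that nourish the oocyte. The text that describes the design speaks instead of blastocysts made from the oocytes of these animals. This conflict about what the samples are is unresolved and touches all values below. All ages shared the same hormone schedule, per the labels' protocols. The heifers received progesterone from a CIDR device, the dominant follicle was aspirated, and FSH was given in 6 injections of 30 mg spaced 12 h apart. Follicles were punctured through the vaginal wall 43 h after the last FSH injection. RNA was extracted from pools and amplified linearly before labelling. The labels do not say whether the 2 arrays of a heifer carried the same 14-month extract. The RNA of the younger age was labelled with Cy5 in heifers 1 and 2 and with Cy3 in heifers 3 and 4, in the same way on both arrays of a heifer. A dye effect that is constant across arrays therefore cancels within a pair.

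Granulosa cells respond to FSH by dividing and by making estradiol, for which they convert androgen with aromatase, the product of CYP19A1. They also secrete anti-Müllerian hormone, inhibins and activins. The pulses of LH that drive the last steps of follicle growth are infrequent in young heifers and become more frequent towards puberty. Keratins of the stratified type, motile cilia and oviduct glycoproteins are not features of granulosa cells. Stratified squamous epithelium lines the vagina, and ciliated and secretory cells line the oviduct.

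Of 43794 probes, 22692 were kept, those that exceeded the negative controls by 2 SD at any age in 3 or more heifers. Each of 10206 genes was represented by its brightest kept probe. Between 43.3% and 57.3% of the probes were above background in the younger channel, and between 45.4% and 51.4% in the 14-month channel. The granulosa markers were set beside the label. Of 23 measured genes of granulosa identity and FSH response, between 20 and 22 were above background in each heifer at each of the younger ages. Because measured genes had already passed this filter, the count cannot check the label. All 10 measured simple epithelial genes were likewise above background in each heifer at both younger ages. FSHR, CYP19A1, AMH and INHBA were above background in 4 of 4 heifers at 8, 11 and 14 months. The summed level of these 23 genes ranged from 17.74 to 18.36 on the log2 scale of the 8-month channels and from 17.07 to 18.42 in the 11-month channels.

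The arrays of heifers 3 and 4 stood apart before any age was compared. The 14-month channel of a heifer appears on both of her arrays, and these channels correlated over probes at 0.985 and 0.988 in heifers 1 and 2. In heifers 3 and 4 the correlation was 0.956 and 0.963. There, each 14-month channel resembled that of the other heifer in the same set of arrays more closely, with 0.972 in the arrays with 8 months and 0.977 in the arrays with 11 months. The share of kept probes whose 14-month channels differed by more than 2-fold between the sets was 0.816% and 0.914% in heifers 1 and 2, against 6.13% and 5.75% in heifers 3 and 4. The differences themselves correlated at 0.721 between heifers 3 and 4, and between 0.071 and 0.142 for the other pairs of heifers. No probe passed the threshold in a paired test of the 14-month channels between the sets (limma, lowest adjusted p = 0.410), which is 0% of 22692 probes, while 2400 had an unadjusted p under 0.05. A paired value equals the 8-month channel minus the 11-month channel, less the difference of the 14-month channels between the sets. That 14-month difference is given beside some of the values in which it is large, and its origin was not tested. A value without it can still hold a large 14-month difference.

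In the comparison of 8 with 11 months, no probe passed the threshold. With limma's paired test and Benjamini-Hochberg adjustment over 22692 probes, 0 probes had an adjusted p under 0.05, which is 0%. The lowest adjusted p was 0.671, and 1170 probes had a p under 0.05 before adjustment. The 4 heifers pointed the same way for 3000 probes, or 13.2%. With 4 pairs, a sign-flip permutation test of a single value cannot go below a two-sided p of 0.125. The values that follow are therefore measurements in 4 animals, and no gene is said to have changed.

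Larger differences were more often towards 8 months. A value of the same sign in 4 of 4 heifers with a mean of at least 1.5-fold was found for 389 genes higher at 8 months, 3.81% of 10206, and for 116 genes lower at 8 months, 1.14%. An unadjusted p under 0.05 was reached by 465 genes with a higher value, 4.56%, and by 136 with a lower value, 1.33%. These shares are the background against which the gene groups below are read. The median over all genes was 0.03. When the 8- and 11-month channels were subtracted directly, without the 14-month channels, 226 of the 389 genes again met the rule for higher values, and 33 of the 116 genes met that for lower values.

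Keratins and other genes of stratified epithelium were among the leading higher genes at 8 months. The 8 genes with the smallest p among the consistently higher genes were KRT5, CKB, S100A2, ITPKC, TMEM79, KRT78, PACSIN3 and SLC35C1. They were chosen by p within this comparison, so their values are given as a description.

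KRT5, the type II keratin of the basal layer of stratified epithelia, stood at 2.48, 1.59, 2.18 and 2.72 in heifers 1 to 4. Its mean was 2.24 ± 0.49 (SD, n = 4), or 4.73-fold, with an adjusted p of 0.671 in limma's paired test. All 4 heifers were clearly above 0, and KRT5 was above background in 4 heifers at 8 months but in 1 at 11 months and in 1 at 14 months. Most of its probe level at the older ages is therefore close to background, and the fold rests on dim spots there.

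KRT78, a keratin of stratified epithelium, had the largest mean of the 8 genes at 3.88 ± 1.80 (SD, n = 4), or 14.7-fold. Its paired values were 5.71, 1.45, 4.56 and 3.78 in heifers 1 to 4. Heifer 2 had the lowest value and heifer 1 the highest. Relative to 14 months, KRT78 stood at 6.05, 1.68, 4.42 and 5.22 at 8 months and at 0.33, 0.23, -0.14 and 1.45 at 11 months. The ratios at 8 months were all above those at 11 months, which lay near the 14-month level in heifers 1 to 3.

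CKB encodes the brain-type creatine kinase, which buffers ATP with phosphocreatine. It stood at 3.85, 2.48, 2.22 and 2.44, a mean of 2.74 ± 0.75 (SD, n = 4) or 6.70-fold, with an adjusted p of 0.671 by limma. Heifer 1 was far above the other 3, which lay close together. A second, dimmer probe of CKB had the same sign in every heifer but smaller values of 1.44, 0.78, 0.24 and 1.09.

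S100A2, a calcium-binding protein of basal epithelial cells, stood at 2.00, 1.98, 2.28 and 1.40, with a mean of 1.92 ± 0.37 (SD, n = 4). The even paired values have uneven parts. In heifers 3 and 4 the 14-month channel of S100A2 differed by -1.68 and -1.73 between the array sets, while the 8-month channel differed from the 11-month channel by 0.60 and -0.32. In these 2 heifers most of the paired value lies in the 14-month channels, and in heifers 1 and 2 it lies in the younger channels, which differed by 1.92 and 1.41.

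TMEM79, a membrane protein of the granular layer of the epidermis, stood at 3.77, 2.13, 1.52 and 1.98. ITPKC, which phosphorylates inositol trisphosphate, stood at 0.89 in heifer 1 and between 1.502 and 1.53 in the others. PACSIN3, an adaptor of endocytosis and membrane curvature, stood at 2.34, 1.60, 1.55 and 0.98. SLC35C1, which carries GDP-fucose into the Golgi, stood at 1.77, 1.59, 1.34 and 0.88, with 14-month differences of -0.54 and -1.02 in heifers 3 and 4. The means of these 4 genes ran from 1.36 for ITPKC to 2.35 for TMEM79.

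**Figure D1:**
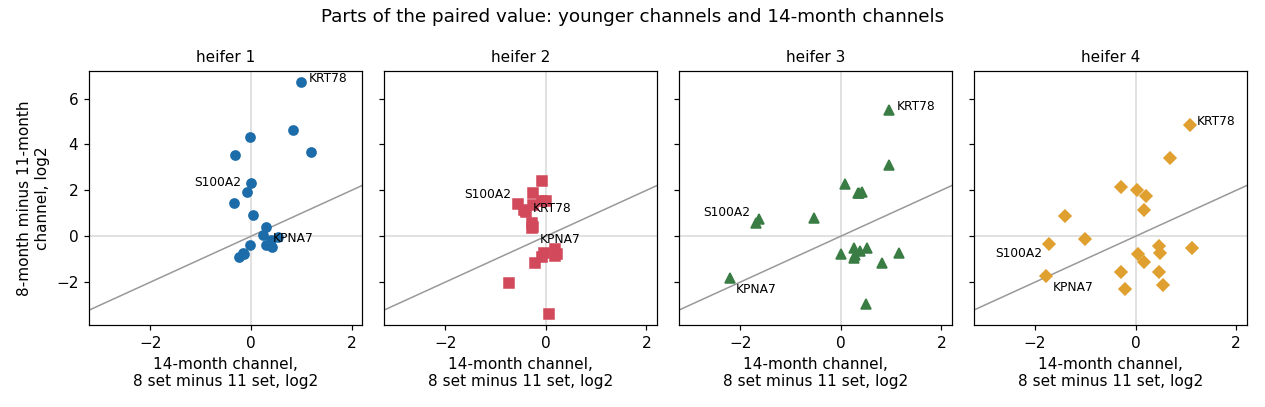
The difference between the 8-month and 11-month channels (y, log2) is plotted against the difference of the 14-month channels between the 2 array sets (x, log2) for the 16 leading genes with S100A8, KPNA7 and TAF15, 1 panel per heifer. The height of a point above the grey line of equality is its paired value. In heifers 3 and 4, S100A2 and KPNA7 lie far to the left, with 14-month differences from -1.68 to -2.20.

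The genes with lower values at 8 months included 2 inflammatory cytokines. The 8 genes with the smallest p among the consistently lower genes were ID2, IL1A, TMEM43, ASF1A, TNF, DEGS1, RBM45 and FMO1, with adjusted p of 0.920 for each by limma.

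IL1A, the cytokine interleukin 1 alpha, stood at -0.34, -3.43, -3.43 and -2.69 in heifers 1 to 4, a mean of -2.47 ± 1.46 (SD, n = 4). Heifer 1 was close to 0 and the other 3 were far below it. IL1A was above background in 3 heifers at 8 months and in 4 at 11 and at 14 months. Over 14 months, IL1A stood at 0.57, -4.61, -4.40 and -1.86 at 8 months and at 0.91, -1.18, -0.97 and 0.83 at 11 months. In each heifer the 8-month ratio was the lower of the pair, although heifer 1 lay above heifers 2 and 3 at either age.

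TNF, tumour necrosis factor, stood at -0.66, -1.29, -0.80 and -2.10, a mean of -1.21 ± 0.65 (SD, n = 4). It was above background in 1 heifer at 8 months and in 4 at 11 and at 14 months, so in 3 heifers its 8-month level is only bounded from above. ID2, an inhibitor of basic helix-loop-helix factors that BMP signals induce, stood at -0.89, -0.95, -1.98 and -1.28. Heifer 3 was the lowest, and the mean was -1.28 ± 0.50 (SD, n = 4).

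TMEM43, a protein of the inner nuclear membrane, stood at -0.57, -0.99, -1.20 and -2.04. ASF1A, a histone chaperone, stood at -0.56, -1.05, -1.05 and -0.82. DEGS1, the desaturase that completes ceramide, stood at -0.69, -0.70, -1.05 and -0.88. Its 14-month channels differed by 0.53 and 0.47 between the sets in heifers 3 and 4, a size close to that of its younger channels there, at -0.53 and -0.41. RBM45, an RNA-binding protein, stood at -0.63, -0.83, -0.79 and -1.20. FMO1, a flavin monooxygenase, stood at -0.55, -0.73, -1.10 and -1.29, and was above background in 1 heifer at 8 months and in 3 at 11 months.

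**Figure D2:**
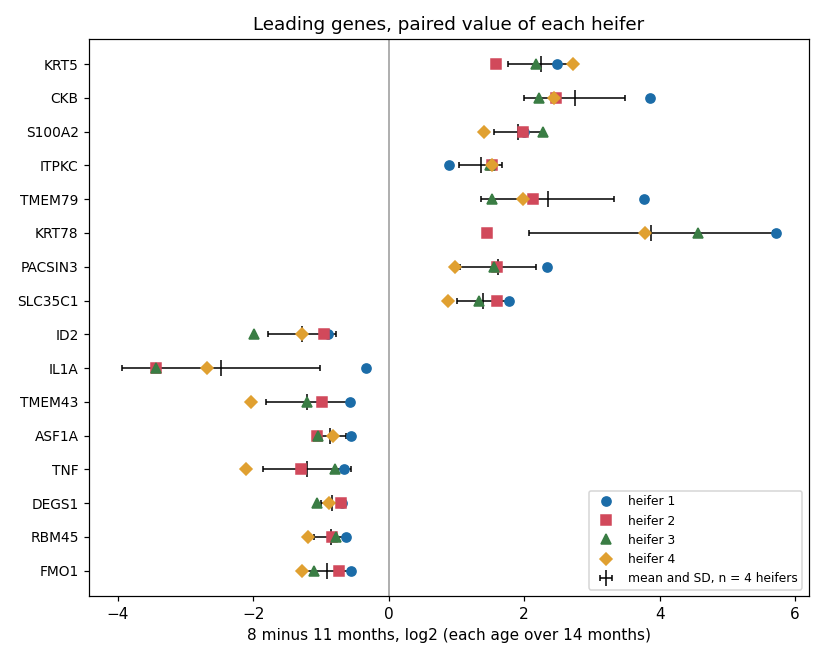
Paired 8 minus 11 month values (x, log2) of the 8 leading higher and the 8 leading lower genes, with 1 marker per heifer and the mean with its SD over 4 heifers in black. The spread within KRT78 (1.45 to 5.71) and IL1A (-3.43 to -0.34) is wide, and that within DEGS1 (-1.05 to -0.69) is narrow.

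Genes of stratified squamous epithelium often had higher values at 8 months. Of 34 listed genes 21 were measured, 10 were under the filter on dim probes and 3 were not matched to a probe. By the rule of 4 of 4 heifers and at least 1.5-fold, 9 of the 21 were higher and 0 were lower, beside 3.81% and 1.14% of all genes. The median of the 21 was 1.92, against 0.03 over all genes, and 1.97 over 14 months at 8 months against 0.17 at 11 months. The heifers differed, with list medians of 2.63, 0.72, 1.60 and 0.88. The list was assembled with earlier results of these data known, so its counts describe these samples and are no independent evidence of a direction.

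The filter bears on this count, because 9 of the 21 measured genes were above background in fewer than 4 heifers at 11 months and could enter through the age at which they were high. Among the 12 genes above background in every heifer at every age, 6 met the rule and the median was 2.00. No share of all genes under this stricter filter is given, so that count cannot be read against the 3.81% above. With no filter, 31 genes had a median of 0.60. The summed level of the genes above background everywhere, of which 11 had a spot on every array, ran from 14.47 to 17.14 in the log2 8-month channels and from 13.43 to 15.00 in the 11-month channels, so the ages overlapped. In bulk RNA, fewer cells of a type and less RNA per cell cannot be told apart.

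Among the cornified envelope and desmosome genes, PPL had the most even values. It encodes periplakin, which ties keratin filaments to the desmosome and the cornified envelope. PPL stood at 3.43, 3.01 and 3.30 in heifers 1 to 3, and heifer 4 has no value because its spot was marked to be ignored on the 11-month array. The fit on 3 pairs gave 3.25 ± 0.21 (SD), or 9.50-fold, with an adjusted p of 0.671 by limma. On the 8-month arrays PPL stood at 3.43, 2.46, 3.95 and 3.46 over 14 months, so heifer 4 resembled the other 3 where it was measured. IVL, or involucrin, a cornified envelope precursor, stood at 3.85, -0.44, 1.55 and 2.44, with heifer 2 below 0. The cornified envelope transglutaminase TGM3 stood at 0.52, 0.19, -0.61 and -0.39, and the squamous master regulator TP63 at 0.02, -1.21, 0.27 and 0.39, so neither leaned to 8 months.

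Heifer 2 was divided among these genes. Its values were close to 0 or below for KRT6A at -0.10, KRT13 at -0.55 and SFN at -0.03, where the other heifers ran from 0.89 to 5.24. SFN encodes stratifin, a 14-3-3 protein of epithelial cells. In the same heifer the elastase inhibitor PI3 stood at 3.77 and LYPD3, a surface protein of squamous cells, at 3.14. PI3 stood at 4.57, 2.08 and 0.88 in heifers 1, 3 and 4, and LYPD3 at 2.63, 1.69 and 0.85. KRT6A and KRT6C, at 4.70, -0.10, 3.85 and 5.24 and at 3.75, 0.68, 3.19 and 4.33, are near-identical paralogs whose probes may share signal.

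PERP, a tetraspan protein of desmosomes, gave different values on 2 probes. Its brightest probe stood at 0.38, 1.23, -1.92 and -2.00, with 14-month differences of 1.15 and 1.51 in heifers 3 and 4. Another probe stood at 4.92, 3.09, 2.68 and 1.80. The signs were alike in heifers 1 and 2 and opposite in heifers 3 and 4. The gene was singled out after its values were seen, and no level for PERP is drawn from them.

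Keratins were measured as a list of their own, which shares KRT5 and other members with the squamous list. Of 17 genes listed as keratins and epithelial secretions, 13 were measured, and 6 were higher by the rule and 0 lower, beside 3.81% and 1.14%. In heifers 1 to 4, 12, 12, 13 and 13 of the 13 were above background at 8 months. At 11 months 7, 11, 10 and 13 were, so members of this list too could enter through the age at which they were high. KRT4 and KRT13, the pair of the suprabasal layers of moist stratified epithelia, stood at 6.73, 0.72, 4.17 and 2.54 and at 4.99, -0.55, 1.89 and 0.89. KRT17, a keratin of basal cells and of wound response, stood at 4.38, 0.03, 2.51 and 4.08. The basal keratin KRT14 stood at 3.94, 0.81, 0.77 and 2.77. Heifer 4 was thus well above 0 for KRT5, KRT14 and KRT17. A dimmer KRT17 probe stood at 1.31, 0.63, 0.94 and 1.62. The keratins of simple epithelia were above 0 in heifers 1 to 3 as well. In heifer 4, KRT18 and KRT8 were below 0 and KRT19 and KRT7 near 0. KRT18 stood at 2.04, 1.76, 0.34 and -4.19, KRT8 at 2.12, 1.25, 1.03 and -1.46, KRT19 at 2.43, 1.22, 1.52 and -0.31, and KRT7 at 4.28, 2.59, 2.57 and -0.03. The difference between the keratin types was not tested. The 14-month channels of KRT5 and KRT78 differed by 0.69 to 1.19 between the sets in heifers 1, 3 and 4, with the sign that lowers the paired value.

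Motile cilia genes split the heifers by direction instead of by age. Of 43 listed genes, 22 were measured, 12 were under the filter and 9 were not matched. By the rule 1 was higher and 0 were lower, near the background of 3.81% and 1.14%, and the list medians of heifers 1 to 4 were 0.88, 2.63, 0.06 and -2.01. DNAH9, a heavy chain of the outer dynein arm, stood at 1.21, 5.82, -0.15 and -5.48. ROPN1L, a protein of cilia and flagella, stood at 1.08, 6.10, -0.02 and -6.21. Over 14 months, DNAH9 stood at 5.81, 5.55, 0.23 and 0.60 at 8 months and at 4.60, -0.27, 0.39 and 6.08 at 11 months. The level was thus high at both younger ages in heifer 1, at 8 months in heifer 2, at 11 months in heifer 4, and at neither in heifer 3. The summed level of the 22 genes ran from 12.40 to 16.87 in the 8-month channels and from 12.20 to 16.04 in the 11-month channels. In heifer 3, 12 of the 22 were above background at either age.

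OVGP1, the oviduct glycoprotein, followed the cilia genes at 0.23, 5.65, 0.15 and -3.00. Of 14 measured genes of oviduct and uterine secretory epithelium 1 was higher by the rule and 0 lower, beside 3.81% and 1.14%. The higher gene was DMBT1, a mucosal scavenger receptor, at 3.30, 0.07, 0.40 and 1.65. FOXA2, a transcription factor of endodermal and uterine gland epithelium, stood at 2.30, 4.62, 1.30 and -1.39. Beside the same shares of all genes, the simple epithelial list, with 10 of 15 genes measured, had 2 higher and 0 lower. These were CLDN4, a claudin of tight junctions, at 4.28, 1.16, 2.94 and 1.86, and the cadherin CDH3 at 1.38, 0.01, 2.10 and 1.10. EPCAM, a surface protein of simple epithelia, stood at 2.30, 3.87, -0.07 and -3.04, but a second EPCAM probe stood at 0.26, -0.58, -0.15 and 0.30, so no level for EPCAM is drawn from them. MUC1, a membrane mucin, stood at 3.52, 3.25, 1.75 and -0.75. For FOXA2 and MUC1 heifers 1 and 2 were high and heifer 4 was below 0.

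**Figure D3:**
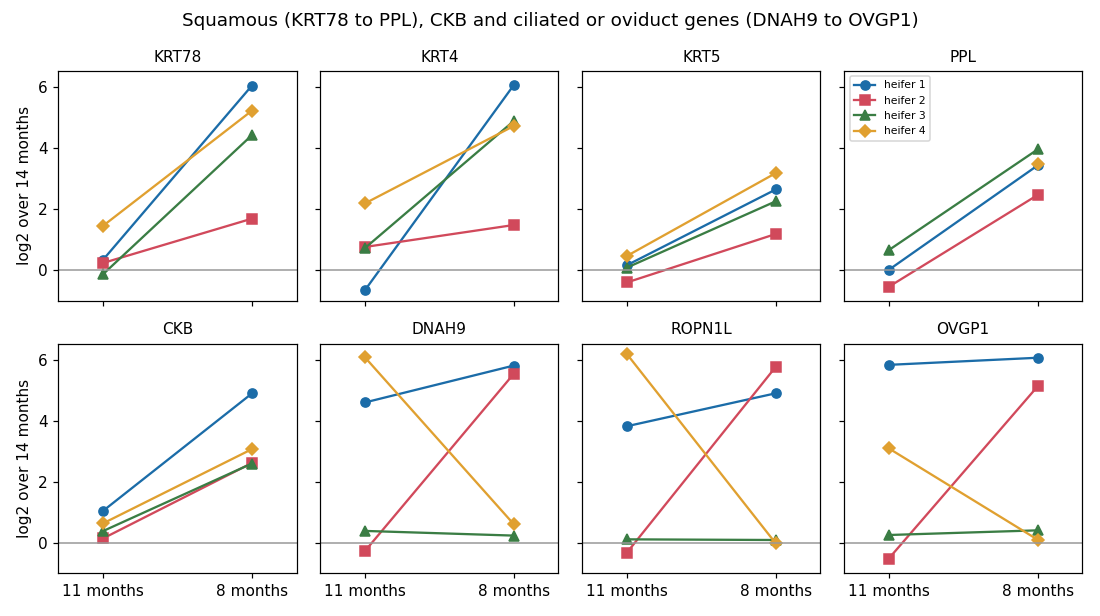
Log2 ratio over 14 months (y) at 11 and at 8 months (x) for 8 genes, with 1 line per heifer and a lone point for PPL in heifer 4, which has no 11-month value. The lines of KRT78, KRT4, KRT5, PPL and CKB run upward to 8 months in every heifer with both values, while those of DNAH9, ROPN1L and OVGP1 run upward in heifer 2 and downward in heifer 4.

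Probes passed the threshold of limma's paired test in 3 other fits, which were set up with the epithelial and ciliary values already known and are no independent evidence. With the motile cilia median of each heifer as a covariate, 23 probes were called, 0.101% of 22692, all with higher values at 8 months. Of these probes 14 had a gene name, and 9 of the 14 genes were on the squamous list, among them KRT5, KRT6A, KRT6C, KRT78, PPL, LYPD3, PI3 and S100A2. The others included CKB, IGF2R and ZKSCAN1. Without heifers 2 and 4, whose cilia medians differed most between the ages, 29 probes were called, 0.128%, all higher, with 7 squamous genes among 22 named. Without heifers 3 and 4, whose 14-month channels differed most, 196 probes were called, 0.866%, all higher, with 6 squamous genes among 154 named. The last group held simple epithelial and ciliary genes such as MUC1, KRT7, ESRP1 and DNAI3, and also the transcription factor genes HOXB4, WT1 and LMO2. These 2 fits rest on 2 pairs each and were added after the data were seen. Probes of PPL, MAL, PERP and CKB were called in all 3 of these fits, the PERP probe being the one that disagreed with the brightest. MAL encodes a proteolipid of apical membrane transport. Each of the 4 heifers left out alone gave 0 called probes.

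S100A8 and S100A9, the subunits of calprotectin, were on the leukocyte list and are also made by squamous epithelium. S100A9 stood at 5.26, -0.11, 3.56 and 3.32, with heifer 2 near 0 as for KRT6A and SFN. S100A8 stood at 4.35, 0.86, 2.37 and 2.31, with 14-month differences of -1.63 and -1.41 in heifers 3 and 4. Of 25 measured leukocyte genes 1 was higher by the rule, S100A8, and 0 were lower, beside 3.81% and 1.14%, and the median was -0.02. The fitted value was above 0 for 12 of the 25 and below 0 for 13. The macrophage marker CD68 stood at 0.22, -1.99, -0.84 and -1.41, while a probe of CD74, also on the list, stood at 2.46, 1.80, 1.08 and -2.47. The summed level of the list ran from 15.01 to 16.02 at 8 months and from 15.34 to 15.78 at 11 months. Its part in the IL1A and TNF values was not tested.

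The genes of FSH response and granulosa identity had a median of 0.06, with 1 of 23 genes higher by the rule and 0 lower. Over all genes the shares were 3.81% and 1.14%. The heifers differed, with medians of -0.27, -0.63, 0.04 and 1.02. FSHR, the FSH receptor, stood at -1.15, -1.15, -0.98 and 1.39, and CYP19A1 at -1.04, -1.31, -0.69 and 2.36. Heifers 1 to 3 were thus lower at 8 months and heifer 4 was higher for both genes. Over 14 months, FSHR in heifer 4 stood at -0.63 at 8 months and at -2.01 at 11 months, and CYP19A1 at -0.77 and -3.13, so the sample of heifer 4 at 11 months was the low one. That sample also had the highest DNAH9 ratio of all arrays, 6.08. Its 2 dimmer CYP19A1 probes stood at 1.91 and 0.58 in heifer 4 and between -0.34 and 0.50 in heifers 1 to 3.

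Another set of granulosa genes separated heifers 3 and 4 from heifers 1 and 2. AMH, the hormone of small growing follicles, stood at -0.39, -0.69, 2.14 and 2.69. HSD17B1, which turns estrone into estradiol, stood at -0.40, -0.63, 2.47 and 3.22. IHH, in mice the hedgehog ligand that granulosa cells send to theca cells, stood at 0.38, 0.36, 2.64 and 2.52 and was the gene counted as higher by the rule. The 14-month channels of AMH and IHH in heifers 3 and 4 differed by -0.07 to 0.26 between the sets, far less than these values. In heifer 2, IHH differed by -0.55 in the 14-month channels and by -0.20 in the younger channels. Its positive value in that heifer, which the rule needs, thus lies in the 14-month channels. For HSD17B1 the 14-month channels differed by -0.74 in heifer 1 and by 0.43 in heifer 3. Heifers 3 and 4 also share the dye orientation, which cannot be told apart from this split. A dye effect that is constant across arrays cancels within a pair, while one that differs between arrays does not. The cause of the split was not tested.

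INHBA, a subunit of activin and inhibin, stood at -0.03, 0.63, -0.92 and 0.82, and INHA, the subunit that makes inhibin, at 0.03, 0.36, -0.30 and 0.75. FST, or follistatin, which binds activin, stood at -0.41, -0.78, -0.04 and 2.10, and GJA1, the connexin of granulosa gap junctions, at -0.95, -1.83, -1.65 and 2.70. In each of these 4 genes heifer 4 had the highest value. The 14-month channels of GJA1 differed by 0.78 and -0.92 between the sets in heifers 3 and 4. CCND2, in mice the cyclin through which FSH drives granulosa division, stood at -0.60, 0.96, 1.24 and 2.72. The probe of INHBA was saturated on 1 array with 8 months and on 1 with 11 months.

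Steroid synthesis was the list with the lowest median, -0.44, with heifers at -0.20, -1.06, -0.80 and 0.23. Of 15 measured genes 0 were higher and 0 lower by the rule, and 3 had a lower value with an unadjusted p under 0.05, beside 1.33% of all genes. HSD3B1, which makes progesterone from pregnenolone, stood at -0.61, -2.99, -2.38 and 0.43. SCARB1, the receptor that takes up cholesterol from HDL, stood at -1.003, -2.84, -1.37 and 0.88, and CYP11A1, the enzyme of the first step, at -0.99, -3.19, -0.83 and 2.28. For these 3 genes heifers 1 to 3 were below 0, heifer 2 the lowest, and heifer 4 was above it. STAR, which brings cholesterol into the mitochondrion, stood at 3.81, -3.53, -2.57 and -0.27, and its second probe at 2.43, -3.71, -3.10 and -1.23. Heifer 1 was high and heifers 2 and 3 were low on both probes. In heifer 4 the younger channels of the first STAR probe differed by -1.34 and its 14-month channels by -1.08. NPC1, which releases cholesterol from lysosomes, stood at -0.72, -1.06, -1.34 and 0.13, and RGN, a calcium-binding protein, at -0.71, -2.17, -1.87 and 0.23. At 8 months NPC1 was above background in 3 heifers and RGN in 2, and at 11 months each was in 4.

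Genes of the ovulatory and LH response had 0 of 11 measured members higher and 0 lower by the rule, beside 3.81% and 1.14% of all genes. Their median was -0.16. TNFAIP6, which cross-links the matrix of the expanding cumulus, stood at -0.85, -4.79, -3.15 and 0.66. PTX3, a partner in the same matrix, stood at 0.77, -3.61, -2.22 and 0.26, and was above background in 1 heifer at 8 months and in 3 at 11 months. Heifers 2 and 3 were thus far lower at 8 months for both matrix genes, as they were for STAR, HSD3B1 and IL1A. For IL1A heifer 4 was far lower as well, at -2.69. The LH receptor gene LHCGR was under the filter on dim probes and is not reported. VEGFA, an angiogenic factor, stood at -1.31, -0.54, 0.95 and 0.68, split between the same pairs of heifers as AMH.

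**Figure D4:**
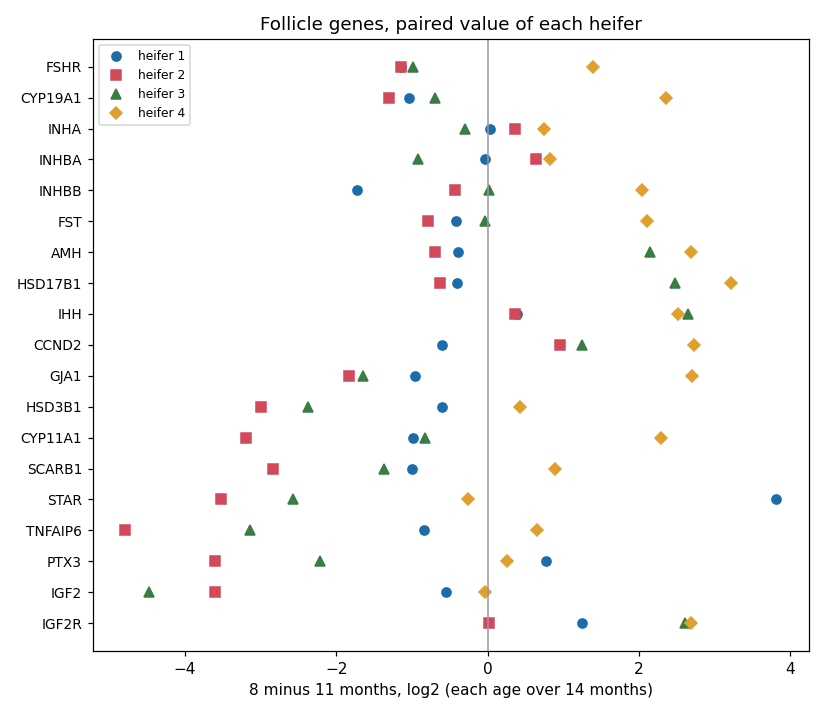
Paired 8 minus 11 month values (x, log2) of 19 genes of granulosa identity, steroid synthesis, the cumulus matrix and the IGF system, with 1 marker per heifer. Heifer 4 lies to the right of the others for FSHR (1.39) and CYP19A1 (2.36), and heifers 3 and 4 lie to the right of heifers 1 and 2 for AMH, HSD17B1 and IHH.

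The insulin-like growth factors act with FSH on granulosa cells. Of 22 listed genes 11 were measured, and 2 were higher and 1 lower by the rule, beside 3.81% and 1.14% of all genes. The growth factor IGF2 stood at -0.55, -3.60, -4.47 and -0.03. Its scavenger receptor IGF2R stood at 1.24, 0.02, 2.60 and 2.69, and the insulin-signalling kinase AKT2 at 0.17, 0.71, 1.75 and 2.76. The low values of IGF2 lay in heifers 2 and 3. The binding protein IGFBP3 stood at 1.43, -1.80, 3.07 and 2.71, and INSR, the insulin receptor, at 0.07, -1.42, 1.79 and 2.17, both below 0 in heifer 2.

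Stress and immediate early genes went both ways, with 2 of 32 measured genes higher and 3 lower by the rule. Over all genes the shares were 3.81% and 1.14%. GADD45G, a growth arrest gene, stood at 0.84, 1.72, 1.27 and 0.76, and the AP-1 subunit JUNB at 0.29, 0.07, 1.82 and 1.69. FOSB, another AP-1 subunit, stood at -1.34, -0.55, -0.03 and -1.57, and 2 dimmer probes of it at -0.15 and -0.08 on average. Its brightest probe had a 14-month difference of -0.85 in heifer 2. The antiproliferative gene BTG2 stood at -0.05, -0.84, -0.70 and -1.07, and DDIT3, of the unfolded protein response, at -0.62, -1.34, -0.38 and -0.16. The 2 other probes of DDIT3 averaged -0.05 and 0.12, so its count among the lower genes rests on 1 probe of 3. Among antioxidant genes, 1 of 25 was higher and 1 lower, beside the same shares of all genes. Glutathione reductase, GSR, stood at 2.80, 0.07, 0.83 and 2.13, and thioredoxin reductase, TXNRD1, at 1.90, -0.30, 1.23 and 2.18, with heifer 2 near 0 in both.

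Single genes of other lists differed in how even they were across the heifers. By the rule, 3.81% of all genes were higher and 1.14% lower. PFKL, the liver subunit of phosphofructokinase, stood at 0.63, 1.16, 1.10 and 1.03, a mean of 0.98 ± 0.24 (SD, n = 4), and was the only one of 18 glycolysis genes higher by the rule, with 0 lower. MMP9, a gelatinase, stood at 1.21, 1.00, 0.77 and 2.07 and was the only one of 23 extracellular matrix genes counted as higher, with 0 lower. MMP9 was above background in 4 heifers at 8 months, in 2 at 11 months and in 3 at 14 months. SREBF2, the activator of cholesterol synthesis genes, stood at 0.74, 1.27, 0.59 and 1.28, but its other probes averaged 0.26 and -0.60, and the 19 measured genes of cholesterol synthesis had a median of -0.03. IRF7, the only one of 13 interferon response genes counted as higher, stood at 2.25, 0.81, 0.90 and 0.44. WWTR1, or TAZ, an effector of Hippo signalling, stood at 0.74, 1.12, 0.72 and 0.36, and WWC1, upstream in the same pathway, at 3.12, 3.88, 2.95 and -0.54. SUCLA2, a subunit of succinyl-CoA synthetase, stood at -0.25, -0.81, -0.59 and -1.10, and OGDH of the same cycle at 0.33, 0.26, 1.20 and 1.32. In heifer 1 the younger channels of SUCLA2 differed by 0.17 and its 14-month channels by 0.43. The 31 measured genes of mitochondrial respiration had a median of -0.04.

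Several lists had medians from -0.04 to 0.25. Over all genes, 3.81% were higher and 1.14% lower by the rule. Cell cycle genes had a median of 0.13, with 1 of 38 higher by the rule, the spindle protein PRC1 at 0.00, 0.49, 0.91 and 1.46. Ribosomal protein genes had a median of 0.21, and RNA-binding and splicing genes one of 0.00, with 0 of 24 and 0 of 26 genes higher or lower by the rule. Their leading members were RPS9, at -0.30, 0.81, 1.16 and 1.26, and HNRNPA1, at 0.35, 0.34, 0.35 and 0.68. TAF15, another RNA-binding gene, stood at -0.20, 0.62, -1.90 and -1.63, with 14-month differences of 1.16 and 1.12 in heifers 3 and 4. TGF-beta, activin and BMP genes had a median of 0.01, angiogenesis and hypoxia genes one of -0.04, and apoptosis and lysosomal genes one of 0.25. Fitted values were above 0 for 20 of 24 ribosomal genes and for 11 of 16 apoptosis and lysosomal genes, beside 5505 of 10206 over all genes. The ribosomal medians of heifers 1 to 4 were -0.17, 0.61, -0.02 and 0.21.

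Markers of other cells did not lean to an age as lists. Their counts stand beside 3.81% of all genes higher by the rule and 1.14% lower. The theca and stroma list had 1 of 15 genes higher by the rule, THY1 at 1.73, 0.98, 0.38 and 0.05, and a median of -0.07. The red blood cell list had 5 of 14 genes measured and 1 lower, the globin HBB at -0.62, -0.87, -0.17 and -1.46. The endothelial list had 8 of 18 measured and a median of -0.01, and the oocyte list 7 of 21 and a median of 0.17. None of these endothelial and oocyte genes was higher or lower by the rule. KPNA7, an oocyte importin, stood at 0.11, 0.63, 0.39 and 0.05. In heifers 3 and 4 this small difference was the remainder of -1.81 and -1.73 between the younger channels and of -2.20 and -1.78 between the 14-month channels.

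**Figure D5:**
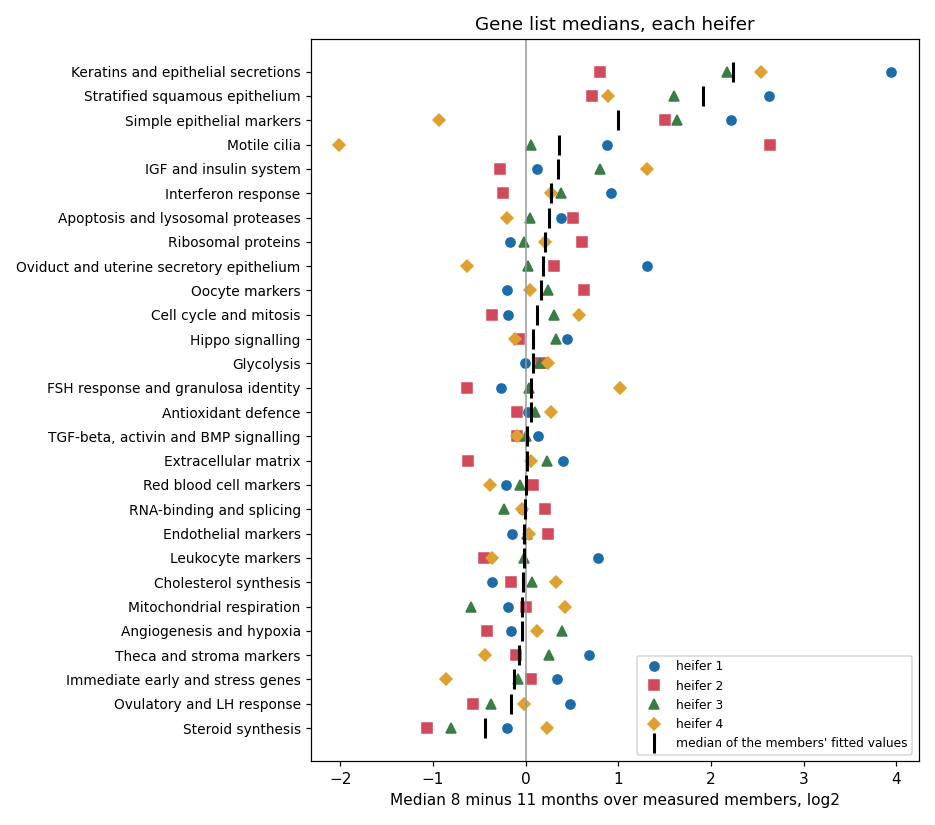
Median paired value (x, log2) over the measured members of each of 28 gene lists, with 1 marker per heifer and a black bar for the median of the fitted values. Keratins and stratified squamous genes lie above 0 in all 4 heifers, motile cilia genes run from -2.01 in heifer 4 to 2.63 in heifer 2, and steroid synthesis has the lowest bar at -0.44.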

How the data were processed

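Per the file headers, the scanner tables the authors deposited hold spot intensity in 2 channels, as median and as mean over pixels, without background correction or normalization. The log2 ratios in another deposited table of the authors served as an alternative. Set against the intensities, its columns followed Cy5 over Cy3 after background subtraction and loess, with correlations from 0.999 to 1.00 and medians from -0.02 to 0.00083. The image software and the authors' normalization are not given in the sources used here.

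The R version was 4.3.3 and limma was version 3.58.1. Intensities (medians) went through normexp with an offset of 50 and log2 ratios through loess within arrays, control spots having no weight. Background was read from 153 negative control spots per array and channel. Channel levels came from these ratios after the mean brightness of the arrays was brought to 1 distribution. Where a probe was above background in few heifers of an age, its fold is an estimate from dim spots. Spots marked to be ignored were left out, so 152 kept probes lack a value in 1 or more pairs.

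The intercept of the 4 paired values was tested with moderated variances (3 residual and 3.39 prior degrees of freedom). The pairs come from the labels, which name the same animals. As a check, the deviations of a heifer's arrays from their group means had correlations of 0.378, 0.275, 0.446 and -0.110. The test was checked on 1 simulated data set, where it missed the smallest shifts, called most of the largest, and made more false calls than its threshold allows on average. Precision is limited by the small number of arrays.

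The platform's annotation, an old one, gave the symbols: 1 for 21790 probes, several for 0 and none for 22004. Of those with a symbol, 21549 matched the ARS-UCD2.0 gene table and 241 did not. Of the genes, 2117 had 2 or more kept probes.

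Named are the 8 genes of each direction with the smallest p among those alike in 4 of 4 heifers and at least 1.5-fold, the 2 members of each of 28 lists with the smallest p, and AMH, CYP19A1, FSHR, HSD3B1, INHBA, LHCGR, STAR and VEGFA. Other genes were picked after their values were seen. The comparison, members and lists were chosen with earlier results of these data known. Alternatives covered background correction, normalization, filters, array weights, the block, single channels, a cilia covariate and left-out heifers.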

Additional observations from a re-analysis of the deposited data

Results flagged for a closer look

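In 8 of 103 values tested across the 4 heifers, 1 heifer lay far from the other 3, where chance gives about 1 in 20. Heifer 1 stood apart for CKB, at 3.85 against 2.22 to 2.48 in the others, for ITPKC, at 0.89 against 1.502 to 1.53, and for RRM1, a subunit of ribonucleotide reductase, at 0.088 against 0.50 to 0.59. Heifer 2 stood apart for MMP14, a membrane-bound matrix metalloproteinase, at -0.63 against 1.16 to 1.51, and for the axonemal dynein gene DNAH11, at 2.15 against 0.35 to 0.59. Heifer 4 stood apart for CYP19A1, at 2.36 against -1.31 to -0.69, for FSHR, at 1.39 against -1.15 to -0.98, and for HNRNPA1, at 0.68 against 0.34 to 0.35. For CKB, ITPKC, RRM1, DNAH11 and HNRNPA1 the outlying heifer had the sign of the others. For MMP14, CYP19A1 and FSHR it had the opposite sign.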

How the results depend on the processing

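The count of 0 called probes was also given by the fit of 8 arrays with the heifer as a random replicate block (lowest adjusted p 0.156 by limma), by the fit with no replicate block, and with each heifer left out in turn (0 to 0). It became 23 with the motile cilia median as a covariate, 29 without heifers 2 and 4 and 196 without heifers 3 and 4, and the cause was not tested. The other settings among them other background corrections and filters, the authors' log2 ratios and array weights, also gave 0. The squamous list median fell to 0.60 with no filter on dim probes, which adds dim members. Without heifers 2 and 4 the count of higher members of this list was 15, but fewer pairs had to be alike there. No share of all genes by that looser rule is given, so the 15 has no background to be read against. The paired block changed no other call. Signs turned for TAF15 (0.21) and AMH (-0.54) without heifers 3 and 4, and for KPNA7 (-0.69) with the younger channels alone. CYP19A1 became 0.14 with the cilia covariate and ran from -1.02 to 0.21 with each heifer left out, below 0 without heifer 4. INHBA became -0.20 with array weights, -0.48 without heifers 2 and 4, and ran from -0.11 to 0.48 with each heifer left out. STAR became 0.62 without heifers 2 and 4, 0.14 without heifers 3 and 4, and ran from -2.12 to 0.32 with each heifer left out. VEGFA became 0.061 with median centring, 0.18 with array weights, 0.11 with the younger channels, 0.078 with the cilia covariate, and ran from -0.39 to 0.36 with each heifer left out.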

Other observations

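Probes without a gene symbol held values as even as those of the named genes. The probe EMBV3_26700 stood at 1.28, 1.28, 2.00 and 1.47 in heifers 1 to 4, and EMBV3_42180 at 0.90, 1.26, 1.80 and 1.61, all higher at 8 months. The probes EMBV3_05719, at -0.73, -0.76, -1.13 and -0.87, and EMBV3_13347, at -0.69, -0.79, -1.31 and -0.77, were lower at 8 months in every heifer. None of them passed the threshold, with an adjusted p of 0.920 for each by limma.

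Over all kept probes, the paired values of heifers 2 and 4 correlated at -0.493, those of heifers 3 and 4 at 0.399, and those of heifers 1 and 2 at 0.258. These are correlations across probes, which share arrays and are not independent replicates.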
